A study of Saccharomyces cerevisiae with 6 samples.

Results

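The genes described here are those of the yeast peroxisome: the PEX genes, which build and divide the organelle, the genes of the fatty acid oxidation pathway inside it, and the regulators of that pathway. They were taken by name from the array annotation, as every symbol made of PEX and a number plus a fixed set of 14 further genes. This gave 39 genes, with 1 probe set each, of 5449 genes measured. Of these, 25 are PEX genes, 11 act in fatty acid oxidation and 3 are transcription factors. PEX9 and PEX35 were not analysed here.

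The arrays came from Saccharomyces cerevisiae cells in which SSE1, the gene of an Hsp110 chaperone, is deleted. Controls carried an empty plasmid. The other cells carried yEVenus, which encodes a yellow fluorescent protein, on a multi-copy plasmid. There were 3 arrays in each group, grown from independent colonies in medium lacking leucine and harvested in exponential phase, so all groups share the deletion, the medium and the growth phase. The study asked which genes respond when a protein without a function in yeast is overproduced in this sensitised strain; the labels used here name neither the carbon source nor the strain background, and no value here measures yEVenus.

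In yeast, peroxisomes are the only site of fatty acid β-oxidation. Enzymes made in the cytosol are recognised by soluble Pex receptors, brought to a docking complex in the membrane and released inside, after which the receptors are marked with ubiquitin and pulled back out by an ATPase. Cells growing on glucose keep few peroxisomes and repress the pathway, whereas oleate induces it through the heterodimer of Oaf1 and Pip2, and loss of glucose does so through Adr1.

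The deleted gene was read first as a check of the labels. SSE1 (YPL106C) was at log2 levels of 3.17, 3.24 and 3.02 with the empty plasmid and 3.09, 3.18 and 3.23 with yEVenus, which shows what a probe set reads here without its transcript. Levels are log2 RMA values and are compared between arrays, not between genes. Differences are yEVenus minus empty plasmid and are relative to the bulk of transcripts. "Rose" and "fell" mean an adjusted p under 0.05 in limma across all 5449 genes. By that rule 70.4% of all genes changed, 29.3% upward and 41% downward, so a change in 1 gene is the usual case on these arrays. The groups did not overlap in 74.9% of all genes, and the median difference over all genes was -0.075.

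Short genes tended to be higher and long genes lower with yEVenus, and Spearman's rho between difference and coding length was -0.46 over all genes, which are not independent. Control probe sets at the 3' and 5' ends of 7 yeast genes moved with the groups too. On average the 3' probe set exceeded the 5' one by 1.83 ± 0.0291 in controls and by 2.48 ± 0.0668 in yEVenus cells (log2, SD of array means, n = 3 each). URA3, whose control probe sets read under 3 on the log2 scale at both ends, was left out of these means after its values were seen. The lists of genes below are therefore given with their median coding lengths and with their counts and medians after a loess trend on length was removed from every array, as are most single genes with their difference. That removal also raised SSE1, which has no transcript, from 0.025 to 0.20 (adjusted p = 0.0305), so it can lift a long dim gene. The part of the 3' to 5' shift in the results below was not tested. Markers of mating type also differed: 5 of 7 a-specific genes rose and 1 fell, beside 29.3% and 41% of all genes. The a-specific genes had a median coding length of 630 nt and a median difference of 0.71. With the length trend removed, 5 of them rose and 0 fell, with a median of 0.55. Their summed linear level was 13777 to 14621 with the empty plasmid and 23940 to 24962 with yEVenus. Of 4 alpha-specific genes 3 rose and 1 fell, with summed levels of 464 to 524 and 506 to 549. These 4 had a median coding length of 955.5 nt, and 2 rose and 1 fell with the length trend removed. MF(ALPHA)1, the alpha pheromone gene, read 3.27 to 3.36 and then 3.86 to 4.14. STE3, the alpha-specific gene that fell, read 6.34 to 6.70 and then 5.54 to 5.82 (limma, adjusted p = 2.51e-04). Its difference was -0.87, and -0.70 with the length trend removed. The part of these markers in the results was not tested. RNA came from whole cultures, so a change in some cells and a smaller change in all cells cannot be told apart.

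Of the 25 PEX genes, 10 rose, 7 fell and 8 did not pass the test, against the 70.4% called among all genes. Their differences ran from -0.49 to 0.85 with a median of 0.035, and 0 of the 25 reached a 2-fold change, beside 4.81% of all genes. Against a minimum change of 1.2-fold, 10 of the 39 genes passed, beside 32.2% of all genes. The median absolute difference was 0.35 for PEX genes and 0.30 for all genes. The shares of 40.0% rising and 28.0% falling compare with 29.3% and 41% of all genes. PEX genes had a median coding length of 1131 nt, against 1236 nt over all genes. With the length trend removed, 12 rose and 5 fell, beside 31.4% and 33.5% of all genes (65% in all), and their median was 0.11. The median had no stable sign, as it was -0.049 when the dimmest 25% of genes were left out.

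**Figure D1:**
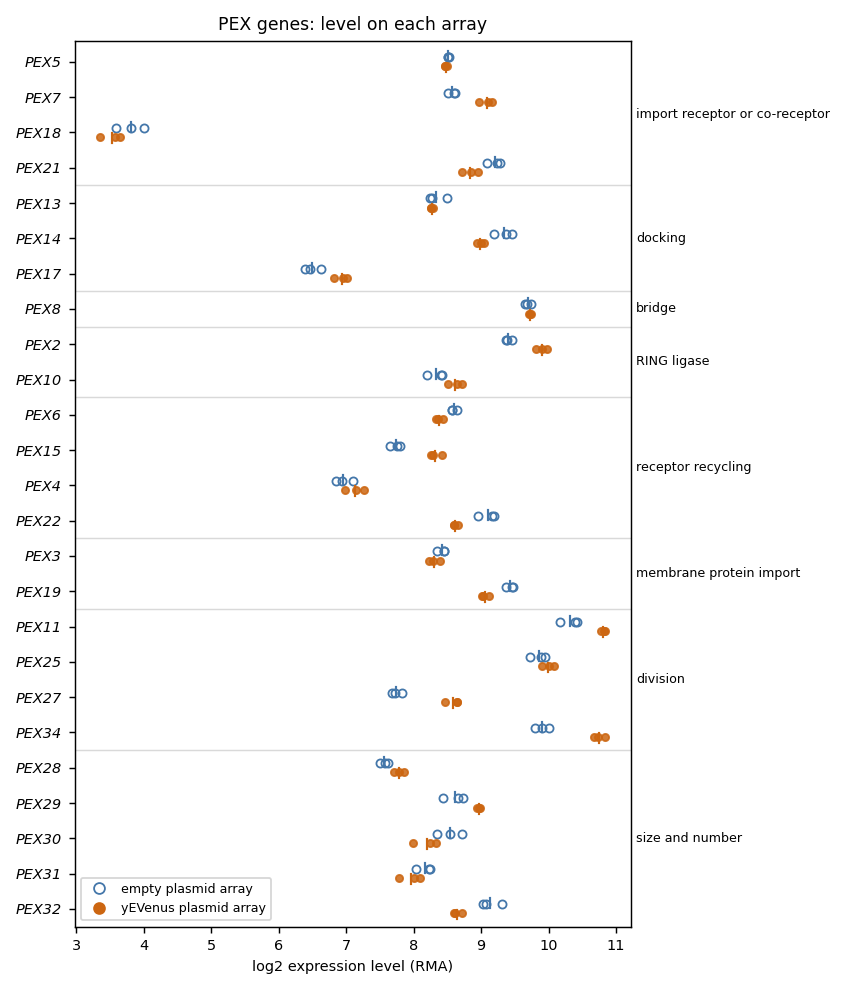
Log2 expression level of the 25 PEX genes on each of the 6 arrays, grouped by role; open blue circles are empty plasmid arrays, filled orange circles yEVenus plasmid arrays, and short vertical bars the group means. PEX27, PEX34 and PEX11 lie to the right with yEVenus without overlap, while PEX5, PEX8 and PEX13 sit close together in both groups.

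The division genes PEX34 and PEX27 had the largest rises of the 39 genes, although with the length trend removed PEX34 came after PEX27, PEX15, PEX7, POX1, PEX29 and PEX2. PEX11 encodes the membrane protein that elongates peroxisomes before they divide, PEX25 and PEX27 encode its relatives, and PEX34 encodes a further membrane protein that works with them. Of the 4 measured 3 rose, beside 29.3% of all genes, with a median of 0.66. Their median coding length was 921 nt, and removal of the length trend took their median difference to 0.41.

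PEX34 (YCL056C) was at 10.00, 9.80 and 9.90 with the empty plasmid and at 10.68, 10.84 and 10.74 with yEVenus. Every yEVenus array was above every empty plasmid array, and the rise was 1.81-fold (log2 difference 0.85 ± 0.0701 SE, limma, adjusted p = 3.34e-05). At 435 nt it is the shortest of the 39 genes, and with the length trend removed the difference was 0.43 (adjusted p = 3.91e-04). PEX27 (YOR193W) went from 7.83, 7.68 and 7.73 to 8.64, 8.65 and 8.46. Those groups lie well apart, with a rise of 1.79-fold (0.84 ± 0.0702 SE, limma, adjusted p = 3.66e-05). At 1131 nt PEX27 was of middling length, and removal of the trend left it at 0.94.

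PEX11 (YOL147C) was at 10.39, 10.41 and 10.17 with the empty plasmid and at 10.83, 10.82 and 10.77 with yEVenus. The groups did not overlap, and the yEVenus arrays were tighter (SD 0.0304 against 0.135). The rise was 1.40-fold (limma, adjusted p = 5.60e-04), or 0.38 in log2 terms with the length trend removed. PEX25 had a difference of 0.15, with groups that overlapped and a 95% interval of -0.029 to 0.32 (limma, adjusted p = 0.116). It passed under cyclic loess (adjusted p = 0.0241), under median centring (0.0388) and with the length trend removed (0.00733), where it was at 0.28.

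Among the import receptors, the gene of the receptor for the N-terminal signal rose and that of the receptor for the C-terminal signal did not pass. PEX5 encodes the receptor of the C-terminal signal, which most matrix enzymes carry. Its levels were 8.51, 8.50 and 8.52 with the empty plasmid and 8.47, 8.50 and 8.47 with yEVenus. The groups all but touched, the lowest control and the highest yEVenus array both reading 8.50. The difference was -0.032, with a 95% interval of -0.14 to 0.072 (limma, adjusted p = 0.539). A small shift within those bounds remains compatible with these arrays. The sign turned under cyclic loess, median centring, quantile normalization and removal of the length trend.

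PEX7 (YDR142C) encodes the receptor of the N-terminal signal, whose best known cargo is the thiolase Pot1. It went from 8.51, 8.61 and 8.59 to 9.11, 9.16 and 8.97. All yEVenus arrays were higher, a rise of 1.42-fold (0.51 ± 0.0645 SE, limma, adjusted p = 2.48e-04; 0.61 with the length trend removed).

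Pex7 needs a co-receptor, Pex18 or Pex21. PEX21 (YGR239C) was at 9.28, 9.23 and 9.08 with the empty plasmid and 8.95, 8.85 and 8.72 with yEVenus. It fell without overlap by 0.36 on the log2 scale (limma, adjusted p = 0.00401; -0.38 with the length trend removed), opposite in direction to its receptor. PEX18 had levels of 3.59, 4.002 and 3.81 and then 3.64, 3.35 and 3.58. These overlap, and its difference of -0.28 did not pass (limma, adjusted p = 0.0599). It passed under cyclic loess (-0.37), under quantile normalization (-0.35) and without empty plasmid replicate 1 (-0.38). The file holds no detection calls, so whether a gene this dim was above background was not tested.

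The docking complex, which receives the loaded receptors at the membrane, was mixed. PEX14 fell, PEX17 rose and PEX13 did not pass. PEX14 (YGL153W), at the core of the complex, was at 9.18, 9.46 and 9.36 with the empty plasmid and 8.99, 8.93 and 9.04 with yEVenus. The groups were apart, with a fall of 0.35 on the log2 scale (limma, adjusted p = 0.0043; -0.29 with the length trend removed).

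PEX17, whose product binds Pex14, went from 6.63, 6.40 and 6.47 to 7.01, 6.96 and 6.82. That is a rise of 1.35-fold without overlap (limma, adjusted p = 0.00146). PEX17 is 600 nt long, and its difference went from 0.43 to 0.23 when the length trend was removed (adjusted p = 0.0155). PEX13 had a difference of -0.066 (95% interval -0.24 to 0.11), whose sign turned under 4 of the alternatives. PEX8, which joins the docking complex to the ubiquitin ligases from the inner face, was at 0.035 (95% interval -0.079 to 0.15) and passed under cyclic loess (0.12, adjusted p = 0.0448) and with the length trend removed (0.17, adjusted p = 0.0123).

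Both measured ligase genes rose. Pex2 and Pex10 are RING proteins of the complex that attaches ubiquitin to the receptors. PEX2 (YJL210W) was at 9.39, 9.45 and 9.37 with the empty plasmid and at 9.98, 9.90 and 9.81 with yEVenus. The lowest yEVenus array stood above the highest control, a rise of 1.41-fold (0.49 ± 0.0589 SE, limma, adjusted p = 1.86e-04). PEX10 rose 1.22-fold (limma, adjusted p = 0.0148). Its call was lost without yEVenus replicate 1 (adjusted p = 0.0574) or 2 (adjusted p = 0.0501). Removal of the length trend left PEX2 at 0.45 and PEX10 at 0.33.

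The genes for pulling receptors back out moved in different directions. Pex6 is an ATPase of the export motor, Pex15 anchors that motor in the membrane, Pex4 is the ubiquitin-conjugating enzyme of the receptors, and Pex22 is the anchor of Pex4. PEX15 (YOL044W) rose 1.51-fold, from 7.79, 7.76 and 7.64 to 8.43, 8.25 and 8.28 (0.59 ± 0.0666 SE, limma, adjusted p = 1.41e-04). Its groups did not overlap, and the difference was 0.71 with the length trend removed.

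PEX6 had a difference of -0.22 and fell in limma (adjusted p = 0.00709). At 3093 nt it is a long gene, and with the length trend removed it was at 0.046 (adjusted p = 0.375). The call was also lost under cyclic loess (adjusted p = 0.0574). PEX4 was higher by 0.17 without passing (limma, adjusted p = 0.121), and at 552 nt it turned to -0.09 with the length trend removed. It passed under median centring (adjusted p = 0.0483) and when empty plasmid replicate 1 (0.0384) or yEVenus replicate 3 (0.045) was left out.

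PEX22 (YAL055W) went the other way, from 9.15, 8.95 and 9.19 to 8.66, 8.59 and 8.60. All yEVenus arrays were lower, with a difference of -0.49 ± 0.072 in log2 units (SE; limma, adjusted p = 5.54e-04). PEX22 is short, at 543 nt, so removal of the length trend moved it further down, to -0.76. It lies on chromosome I, where the median difference over 90 genes was -0.44. Of the other chromosomes, II had a median of -0.32 and the remaining 14 had medians of -0.12 to 0.017.

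Of the membrane protein import genes, PEX19 fell and PEX3 did not pass. Pex19 is the soluble chaperone of peroxisomal membrane proteins and Pex3 its docking partner. PEX19 (YDL065C) went from 9.37, 9.47 and 9.46 to 9.11, 9.01 and 9.03. The groups did not overlap, with a fall of 0.38 on the log2 scale (limma, adjusted p = 4.73e-04; -0.33 with the length trend removed). PEX3 was at -0.11 (limma, adjusted p = 0.133), and at 0.053 with the length trend removed.

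The genes that regulate peroxisome size and number split as well: PEX28 and PEX29 rose, PEX30 and PEX32 fell, and PEX31 did not pass. PEX29 (YDR479C) was at 8.65, 8.44 and 8.72 with the empty plasmid and at 8.98, 8.97 and 8.94 with yEVenus. The rise was 1.28-fold without overlap (limma, adjusted p = 0.00359), and PEX28 rose 1.17-fold (limma, adjusted p = 0.00997). Both are longer than most PEX genes, at 1665 and 1740 nt. PEX29 was at 0.49 and PEX28 at 0.36 with the length trend removed.

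PEX32 (YBR168W) was at 9.31, 9.07 and 9.02 and then 8.72, 8.62 and 8.60. It fell by 0.49 on the log2 scale with the groups apart (limma, adjusted p = 0.0011; -0.33 with the length trend removed). It lies on chromosome II, whose median over 387 genes was -0.32. PEX30 fell by 0.34 (limma, adjusted p = 0.0285). Its call ended without empty plasmid replicate 2 (adjusted p = 0.0552) or 3 (0.0913), without yEVenus replicate 1 (0.0558) or 2 (0.0977), under cyclic loess (0.0845) or median centring (0.0599), and with the length trend removed (0.159). PEX31 was at -0.21 (limma, adjusted p = 0.0765). It passed when empty plasmid replicate 2 (adjusted p = 0.0297) or yEVenus replicate 1 (0.0455) was left out.

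**Figure D2:**
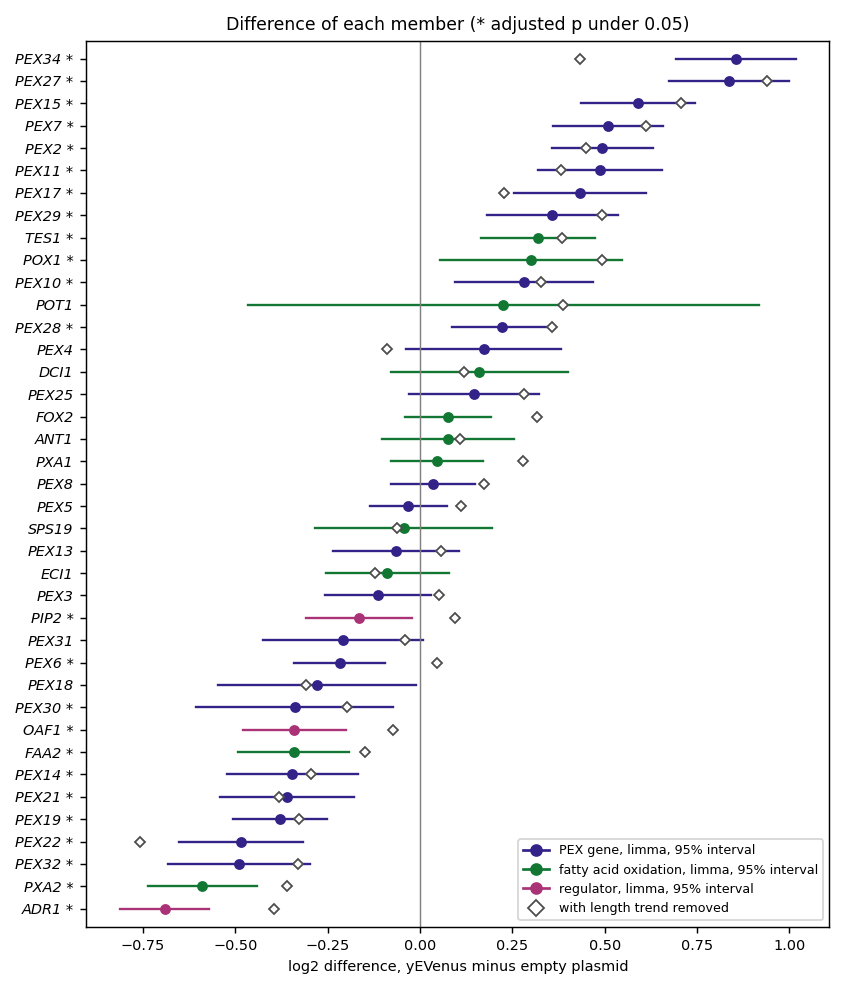
Log2 difference (yEVenus minus empty plasmid) of the 39 genes, ordered by size, with limma 95% intervals; filled circles are the deposited values, open diamonds the values with the length trend removed, and asterisks mark adjusted p under 0.05. PEX34 at 0.85 and PEX27 at 0.84 are at the top and ADR1 at -0.69 and PXA2 at -0.59 at the bottom; POT1 has the widest interval.

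Most of the fatty acid oxidation genes did not pass the test. Of 11, 2 rose, 2 fell and 7 did not pass, which is 36.4% called beside 70.4% of all genes. The median absolute difference was 0.16, beside 0.30 over all genes, and 4 of the 11 had groups that did not overlap, beside 74.9% of all genes. Their median was 0.076 and their median coding length 1254 nt. With the length trend removed, 4 of the 11 rose and 1 fell, beside 31.4% and 33.5% of all genes (65% in all), with a median of 0.12. The median absolute difference was then 0.28, beside 0.25 over all genes. The lower median absolute difference of this list therefore did not hold, while its called share stayed under that of all genes. Only 3 of the 11 were left when the dimmest genes were left out, so most of this list was among the dimmest genes.

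Fatty acids enter the peroxisome as acyl-CoA through the half-transporters Pxa1 and Pxa2, or are activated inside by the medium-chain acyl-CoA synthetase Faa2 with ATP brought in by Ant1. PXA2 (YKL188C) had the largest fall of the 11. It was at 6.82, 6.90 and 7.02 with the empty plasmid and 6.28, 6.38 and 6.31 with yEVenus. The groups were well apart, with a difference of -0.59 ± 0.0636 in log2 units (SE; limma, adjusted p = 1.14e-04; -0.36 with the length trend removed).

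PXA1, of nearly the same length (2613 nt against 2562 nt), had a difference of 0.046 with a 95% interval of -0.078 to 0.17 (limma, adjusted p = 0.466). It was at 0.28 with the length trend removed and then passed (adjusted p = 0.00519). FAA2 (YER015W) went from 7.08, 7.15 and 6.95 to 6.69, 6.68 and 6.77. It fell without overlap by 0.34 on the log2 scale (limma, adjusted p = 0.00195), and with the length trend removed it was at -0.15 and no longer passed (adjusted p = 0.0634). ANT1 was at 0.076 (95% interval -0.10 to 0.25; limma, adjusted p = 0.399) and at 0.11 with the length trend removed.

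The core enzymes of the spiral are the acyl-CoA oxidase Pox1, the multifunctional hydratase and dehydrogenase Fox2, and the thiolase Pot1. FOX2 (YKR009C) was at 8.60, 8.60 and 8.50 with the empty plasmid and at 8.63, 8.65 and 8.65 with yEVenus. These levels differ little: the difference was 0.076 (95% interval -0.04 to 0.19; limma, adjusted p = 0.203), and it passed under cyclic loess, median centring, quantile normalization and removal of the length trend (0.32 in the last). POX1 (YGL205W) read 4.71, 4.44 and 4.27 and then 4.71, 4.84 and 4.78. The groups overlap at their edge. It rose 1.23-fold (limma, adjusted p = 0.0341).

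That call for POX1 was lost when any array was left out except empty plasmid replicate 1, with adjusted p of 0.0579 to 0.105 in those 5 cases and differences from 0.20 to 0.33. It was also lost under cyclic loess (adjusted p = 0.0647). With the length trend removed the rise of POX1, a gene of 2247 nt, was larger, at 0.49 (adjusted p = 0.00638). POT1 (YIL160C) read 3.87, 5.12 and 3.92 with the empty plasmid and 4.48, 4.62 and 4.49 with yEVenus. Empty plasmid replicate 2 stood above every other array and the other controls below every yEVenus array, so the groups overlap. The difference of 0.23 did not pass (limma, adjusted p = 0.518), nor did the 0.39 with the length trend removed (adjusted p = 0.293). Without empty plasmid replicate 2 it was 0.63 and passed (adjusted p = 1.57e-04), so the result for POT1 rests on that array. YAT1 and YAT2, carnitine acetyltransferase genes named here after their values were seen, were likewise highest among the controls on that array. YAT1 read 6.17, 7.49 and 6.30 with the empty plasmid and YAT2 read 7.64, 8.53 and 7.80. Both POX1 and POT1 were dim on these arrays.

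The auxiliary enzymes handle unsaturated fatty acids and the ends of the pathway. TES1, the gene of the peroxisomal acyl-CoA thioesterase, rose 1.25-fold (limma, adjusted p = 0.00324; 0.38 in log2 terms with the length trend removed). ECI1 and DCI1, which encode paralogous isomerases, were at -0.089 and 0.16, and SPS19, the dienoyl-CoA reductase gene, at -0.045. None of these 3 passed in limma, with adjusted p of 0.295, 0.193 and 0.714. Removal of the length trend put ECI1 at -0.12, DCI1 at 0.12 and SPS19 at -0.062, again without passing.

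**Figure D3:**
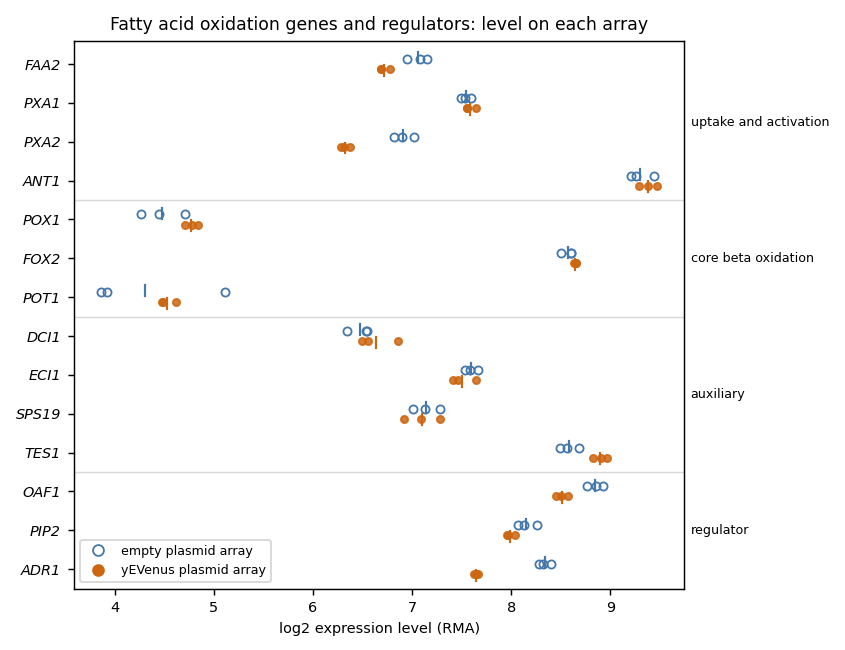
Log2 expression level of the 11 fatty acid oxidation genes and the 3 regulators on each of the 6 arrays; open blue circles are empty plasmid arrays, filled orange circles yEVenus plasmid arrays, and short vertical bars the group means. PXA2, FAA2, OAF1 and ADR1 lie lower with yEVenus without overlap, and POT1 shows 1 empty plasmid array at 5.12 far above the other controls.

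All 3 regulators fell, beside 41% of all genes, in a set with a median coding length of 3144 nt. Only ADR1 fell once the length trend was removed, beside 33.5% of all genes, and their median was then -0.074. Adr1 is a zinc finger activator of genes repressed by glucose, and Oaf1 binds fatty acids and pairs with Pip2. ADR1 (YDR216W) was at 8.32, 8.28 and 8.40 with the empty plasmid and at 7.67, 7.62 and 7.64 with yEVenus. The groups were far apart against SDs of 0.0625 and 0.0239, and the level was 1.61-fold lower with yEVenus (log2 difference -0.69 ± 0.0521 SE, limma, adjusted p = 2.42e-05). At 3972 nt it is the longest of the 39 genes. With the length trend removed it was still lower, at -0.39 (adjusted p = 7.26e-04).

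OAF1 (YAL051W) went from 8.77, 8.92 and 8.85 to 8.45, 8.50 and 8.57. It fell without overlap by 0.34 on the log2 scale (limma, adjusted p = 0.00135). OAF1 is 3144 nt long and lies on chromosome I, where the median was -0.44, and with the length trend removed it was at -0.074 (adjusted p = 0.186). PIP2 (YOR363C) was at 8.07, 8.26 and 8.13 and then 7.96, 7.97 and 8.04.

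The PIP2 groups were close but did not overlap, and its fall of 0.16 was near the threshold (limma, adjusted p = 0.0435). The call was lost under 13 of 17 alternatives, among them each array left out except empty plasmid replicate 1. With the length trend removed PIP2 turned to 0.094 (adjusted p = 0.157).

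**Figure D4:**
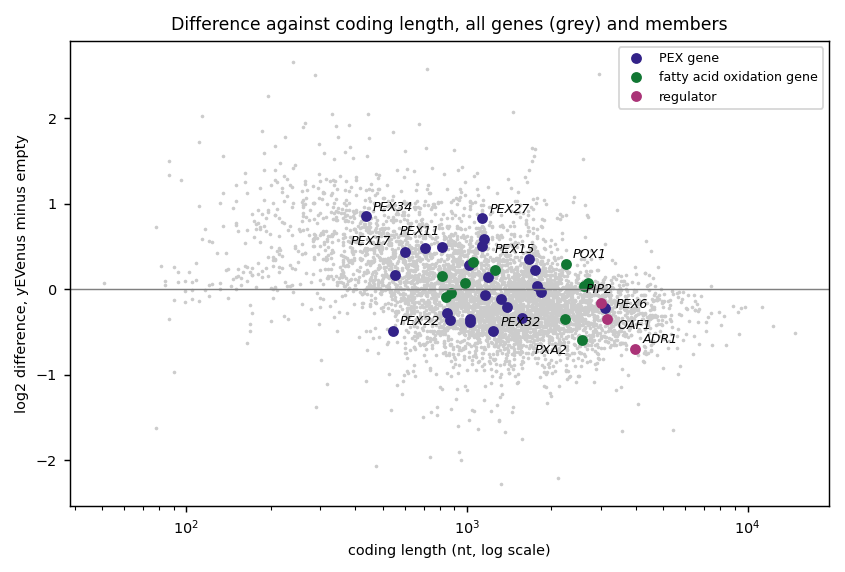
Log2 difference (yEVenus minus empty plasmid) against coding length in nt on a log axis, for all 5449 genes in grey and the 39 genes in colour. The regulators sit among the long genes at -0.16 to -0.69, PEX34 among the short genes at 0.85, and PEX27 in the middle of the range at 1131 nt and 0.84.

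Several members work as pairs, and the difference between partners on the same array does not depend on how the arrays were scaled by a constant. For 13 pairs, chosen after the values were seen, the log2 level of 1 partner minus the other was compared between groups. The exact two-sided permutation test cannot go below 0.1 with 3 arrays against 3, and 7 of the 13 pairs reached that value; adjusted over the 13 it was 0.186. Reaching it means only that the groups did not overlap, which was so for 74.9% of all genes taken singly.

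PXA1 minus PXA2 was 0.77, 0.59 and 0.52 with the empty plasmid and 1.27, 1.27 and 1.24 with yEVenus, a shift of 0.63. The groups did not overlap, and the shift was 0.64 with the length trend removed. This shift restates the fall of PXA2 beside PXA1 given above. PEX5 minus PEX7 shifted by -0.54 (exact permutation p = 0.1, n = 3 each), from -0.061 ± 0.0516 to -0.60 ± 0.0881 (SD). PEX15 minus PEX6 shifted by 0.81, or 0.66 with the length trend removed.

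PEX4 minus PEX22 shifted by 0.66 and PEX27 minus PEX25 by 0.69, again without overlap. Smaller shifts without overlap were seen for PEX3 minus PEX19 (0.27) and PIP2 minus OAF1 (0.18). For PEX2 and PEX10, PEX28 and PEX29, PEX30 and PEX31, PEX13 and PEX14, PEX18 and PEX21, and ECI1 and DCI1 the groups overlapped, with exact p of 0.2 to 0.7.

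**Figure D5:**
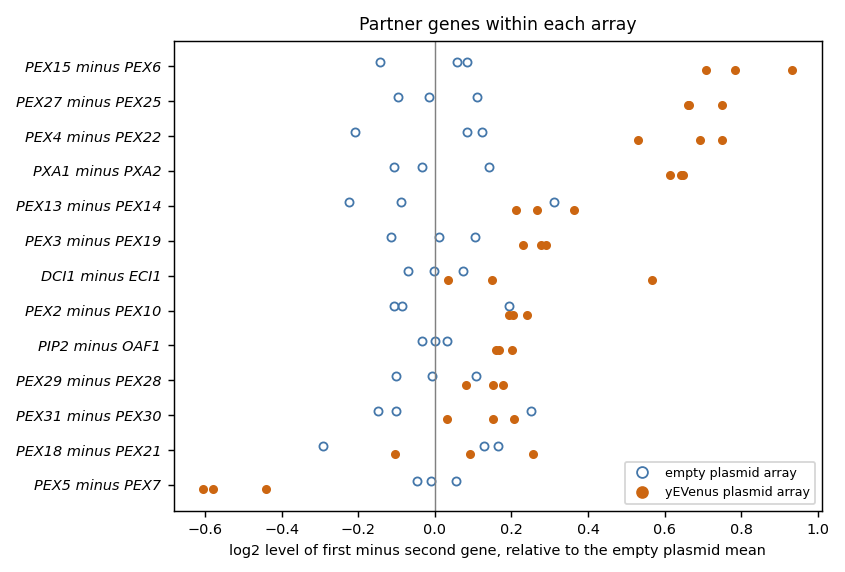
Log2 level of the first gene minus the second on each array for 13 pairs, set to 0 at the empty plasmid mean; open blue circles are empty plasmid arrays and filled orange circles yEVenus arrays. PEX15 minus PEX6, PEX27 minus PEX25, PEX4 minus PEX22 and PXA1 minus PXA2 shift by 0.63 to 0.81, and PEX5 minus PEX7 by -0.54.

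Other genes of peroxisomes and fatty acid use, named on a separate list, were read beside the members. Of 36 measured of 38 listed, 8 rose, 16 fell and 12 did not pass, which is 66.7% called beside 70.4% of all genes. Their median was -0.14 and their median coding length 1473 nt. The split was 9 up and 10 down after median centring and 9 up and 11 down after cyclic loess. With the length trend removed 11 rose and 9 fell, beside 31.4% and 33.5% of all genes, with a median of -0.012. PXP1 and PXP2 were not analysed here.

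STR3, the gene of a peroxisomal cystathionine β-lyase in sulfur amino acid metabolism, rose 2.44-fold from 7.09 ± 0.358 to 8.38 ± 0.0481 (SD, n = 3 each; limma, adjusted p = 1.98e-04). CRC1, which encodes the mitochondrial carrier of acetyl-carnitine, rose 2.16-fold from 5.53 ± 0.141 to 6.64 ± 0.0436 (SD, n = 3 each; limma, adjusted p = 1.56e-05). These were the only 2 of the 36 genes to change by 2-fold or more, and both were slightly larger with the length trend removed (1.46 and 1.14). FIS1, whose product recruits the division dynamins to peroxisomes and mitochondria, rose 1.54-fold (limma, adjusted p = 5.44e-05), or 0.25 in log2 terms with the length trend removed. ACB1, the acyl-CoA binding protein gene, rose by 0.43, but at 264 nt it turned to -0.18 with the length trend removed (adjusted p = 0.0112).

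Among the falls, VPS1, the gene of the dynamin that cuts peroxisomes, had a difference of -0.47 (limma, adjusted p = 1.23e-04), opposite in direction to FIS1. FAA4, a long-chain acyl-CoA synthetase gene, was at -0.52, and SNF1, the gene of the kinase needed to lift glucose repression, at -0.49. PCS60, a peroxisomal AMP-binding protein gene on chromosome II, was at -0.46. With the length trend removed these 4 were at -0.29, -0.35, -0.34 and -0.32 and still passed. CTA1, the peroxisomal catalase gene and an Adr1 target, was at 4.69, 4.69 and 4.69 and then 4.46, 4.53 and 4.56. It fell by 0.17 (limma, adjusted p = 0.0144). The call was lost under median centring (adjusted p = 0.0967), under trend and robust variance (0.111) and with the length trend removed (-0.028, adjusted p = 0.625). CIT2, the peroxisomal citrate synthase gene, had a difference of -0.11 that did not pass (limma, adjusted p = 0.108) except under trend and robust variance (0.0183).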

How the data were processed

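Total RNA of 6 cultures was labelled from the 3' end and hybridised to Affymetrix arrays, per the labels' protocols. The authors deposited a log2 level for each probe set on each array, made with RMA in R 3.2.0 per the submitters' processing notes. Genome build, filters and batches: not given in the sources used here. RMA equalises the arrays, so differences are relative. Array medians lay between 9.06 and 9.13, and the number of arrays limits the precision.

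Of 5900 probe sets, 5498 name 1 gene, 0 several and 402 none. A RefSeq table (assembly R64) served to update 12 symbols and to add chromosomes and coding lengths. The brightest probe set was kept for 47 genes with several, leaving 5449. Groups came from the titles. Limma 3.58.1 in R 4.3.3 (lmFit, eBayes) compared them without a block, with Benjamini-Hochberg adjustment over all genes. The test was checked on simulated data. Same-numbered arrays deviated from their group means with correlations of -0.13 to 0.20, so the numbers were not taken as pairs. The members and lists were chosen with earlier results of these data known.

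Alternatives were cyclic loess, median centring, quantile normalization, the dimmest 25% of genes left out, mean probe sets, trend and robust variance, the replicate block, a minimum change of 1.2-fold, a threshold of 0.01, the length trend removed (loess, span 0.5), chromosomes I and II left out, and each array left out. Genes given on every array were the 3 regulators, POX1, FOX2, POT1, PEX5, PEX7, PEX18, PEX21, PEX11, and the 8 largest rises and 8 largest falls past the threshold without overlap. From the other list, CTA1, CIT2 and the 4 smallest p in each direction were named. No protein or promoter sequences were used here.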

Additional observations from a re-analysis of the deposited data

How the results depend on the processing

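Of the 24 genes of the set that changed, 10 kept their call and direction under every alternative in which they were measured: rises of PEX2, PEX7, PEX11, PEX15, PEX27 and PEX34, and falls of PEX22, PEX32, PXA2 and ADR1. Of these, PEX22 lies on chromosome I (median -0.44) and PEX32 on chromosome II (median -0.32). The alternative without those chromosomes did not include them and so could not test their calls. Leaving out single arrays kept 20 of the 24. Requiring a change of 1.2-fold gave 846 rises and 907 falls over all genes, 6 and 2 among PEX genes, 0 and 1 among fatty acid oxidation genes, and 5 and 3 on the other list. Among fatty acid oxidation genes, leaving out the dimmest 25% (3 of 11 genes left) gave 1 rise and 0 falls, a threshold of 0.01 gave 1 rise, and removal of the length trend gave 4 rises and 1 fall; without single arrays 1 to 2 rose, 1 without empty plasmid replicate 3 or any yEVenus replicate. On the other list, leaving out the dimmest genes gave 3 rises and 10 falls (23 genes left), and falls numbered 10 under median centring, 8 at 0.01 and 9 with the length trend removed. The PEX median of 0.035 was 0.12 under cyclic loess, 0.10 under median centring, 0.0797 under quantile normalization, -0.049 without the dimmest genes, 0.11 with the length trend removed and 0.15 without chromosomes I and II. It was 0.0159 to 0.0614 without single arrays, the lowest without empty plasmid replicate 3 and the highest without empty plasmid replicate 1. The fatty acid oxidation median of 0.076 was 0.16 under cyclic loess, 0.14 under median centring, 0.12 under quantile normalization, 0.12 with the length trend removed and 0.0351 to 0.0742 without single arrays, the lowest without empty plasmid replicate 3. The other list's median was -0.075 under cyclic loess, -0.067 under median centring and -0.012 with the length trend removed.

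Signs turned for small differences, and for the larger one of ACB1. PEX5 was at 0.059, 0.036, 0.0050 and 0.11 under cyclic loess, median centring, quantile normalization and removal of the length trend. PEX13 was at 0.022, 0.0026 and 0.056 under cyclic loess, median centring and length removal, and from -0.12 to 0.015 without single arrays. Length removal turned PEX6 (0.046), PEX4 (-0.090), PEX3 (0.053), PIP2 (0.094), CIT2 (0.062) and ACB1 (-0.18). Of these, PEX6, PIP2 and ACB1 had passed before the removal. ACB1, at 0.43 before it, also passed in the new direction (limma, adjusted p = 0.0112). SPS19 was at 0.024 under median centring and from -0.14 to 0.045 without single arrays, and the deleted SSE1 at -0.081 under cyclic loess, -0.046 under quantile normalization and from -0.038 to 0.076 without single arrays. The replicate block gave 12 rises and 8 falls among PEX genes, adding PEX4 (adjusted p = 0.0249), PEX25 (0.0422) and PEX31 (0.0158), while the regulator gene PIP2 no longer passed (0.0548). The replicate numbers could not be shown to pair the arrays. The causes were not tested. With 3 arrays a group and no detection calls, differences of dim genes such as PEX18, POX1 and POT1 are the least certain.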
